A study of Mus musculus with 6 samples.

Results

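Gas7, Srgap1, Srgap2, Srgap3, Pacsin1, Pacsin2, Pacsin3, Trip10, Fnbp1 and Fnbp1l encode F-BAR proteins that shape the membrane of growing neurites. The 10 genes were chosen by the measured fold change of Gas7 in cortical neurons without the transcriptional repressor RP58, and the relatives of Gas7 were then listed by name. They were taken from 34289 genes to which the deposited transcript counts could be summed, and all 10 were found and passed the filter on low counts. The genotype difference of Gas7, which chose the list, is given without a test. The other 9 genes are tested as relatives, with p-values adjusted over all genes.

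F-BAR domains are curved dimers of helices that bind the inner face of the cell membrane and bend it or sense its curvature. Most members carry an SH3 domain as well, through which they recruit dynamin, N-WASP, the WAVE complex or formins, and so join membrane shape to actin assembly. Classical F-BAR domains, as in the CIP4 and syndapin groups, form inward tubules in endocytosis. The inverse F-BAR domains encoded by Srgap2 and Srgap3 push the membrane outward into filopodia. In cortical neurons these proteins are known for their part in neurite initiation, branching, the leading process of migrating cells and growth cone steering.

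RNA was sequenced from postmitotic neurons of mouse cortex at embryonic day 14.5, with 3 libraries from control cortices (RP58+/+) and 3 from mutant cortices (RP58-/-). RP58 is a zinc finger repressor needed for cortical neurons to mature, listed here under its gene symbol Zbtb18, and the comparison asks what its loss does to the transcripts of these neurons. The labels limit the deletion to no cell type and name no other allele, agent or way of collecting the neurons. They also do not say whether libraries came from different animals, so the p-values measure the spread between these libraries, which may be technical.

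Total estimated counts per library lay between 34645505 and 75892649. The deposited lengths divide the libraries into 2 types, and what made the types differ is not given. In control 1, mutant 1 and mutant 2 every long transcript is 249 bases longer than its effective length (fixed-length libraries), and in control 2, control 3 and mutant 3 the difference lies between 133.7 and 139.2 bases (estimated-length libraries). Protein-coding genes took 91.7% to 92.1% of the counts in the former and 69.7% to 70.1% in the latter, so library type was a term in every main test. Zbtb18 itself was at 1902, 1587 and 1697 CPM (counts over the TMM-adjusted library total) in controls 1 to 3, against 46.7, 45.7 and 538 CPM in mutants 1 to 3. Mutant 3 thus lay 3.05-fold under its controls, where mutants 1 and 2 together lay 41.2-fold under theirs, and results are also given without it. Calls on the marker lists are beside 7.92% of all genes that rose and 7.01% that fell. Summed over 10 neuronal markers, levels were 6340 to 9670 CPM in controls and 4900 to 7940 CPM in mutants, with 3 risen (Rbfox3 2.09-fold) and 5 fallen (Stmn2 2.59-fold, Gap43 2.20-fold and Tbr1 1.91-fold among them). The 10 radial glia markers summed to 193 to 357 and 205 to 383 CPM, with Hes1, Sox2 and Pax6 risen 29.8-fold, 5.12-fold and 3.598-fold and Slc1a3, Fabp7 and Vim fallen 2.90-fold, 2.23-fold and 1.56-fold. The 6 markers of dividing cells summed to 12.2 to 14.8 and 20.8 to 29.9 CPM, and 4 of them rose. Without the library type term no marker of neurons or dividing cells was called, and 3 of radial glia rose and 1 fell. Markers of interneurons, microglia, endothelial cells and mural cells summed to at most 6.16 CPM in any library, and those of erythroid cells to 6.61 to 11.2 and 5.89 to 20.4 CPM. Of 6 interneuron markers tested 2 rose, of 3 endothelial ones 1 rose, and none fell. No microglia, mural or erythroid marker was called. The 6 astrocyte markers summed to 2.72 to 4.63 and 61.2 to 102 CPM, mostly through Gja1, and of 5 tested 3 rose and none fell. The 7 markers of the oligodendrocyte lineage summed to 28 to 34.6 and 41 to 58.2 CPM, mostly through Mbp, with Sox10 at 0 in every library. Of 4 tested 3 rose and none fell. Without the library type term 1 astrocyte marker rose, and the interneuron, endothelial and oligodendrocyte lists held no call. Numbers of cells and RNA per cell cannot be told apart in such bulk samples, and what these shifts contribute to the F-BAR values was not tested.

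Gas7 was among the more abundant F-BAR transcripts in controls and among the scarcest in mutants. The gene (growth arrest specific 7) encodes an F-BAR protein with a WW domain that binds actin and is known for promoting neurite outgrowth. Its level was 133.8, 168.6 and 157.4 CPM in controls 1 to 3, against 7.95, 7.86 and 10.6 CPM in mutants 1 to 3. No mutant library came near a control, and mutant 3, which kept more Zbtb18, was as low as the other two within a few CPM. The group means were 153.3 ± 17.8 and 8.80 ± 1.55 CPM (SD, n = 3), and the fitted log2 fold change was -4.01 ± 0.08 (SE), 16.1-fold. Within the fixed-length libraries the level was 16.9-fold lower in mutants (log2 fold change -4.07 ± 0.12) and within the estimated-length libraries 15.4-fold lower (-3.94 ± 0.14). Of 16985 genes tested, 12, or 0.0707%, had a fitted fall at least as large, Gas7 included. Across all 12 alternative settings its log2 fold change lay between -4.12 and -3.92.

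**Figure D1:**
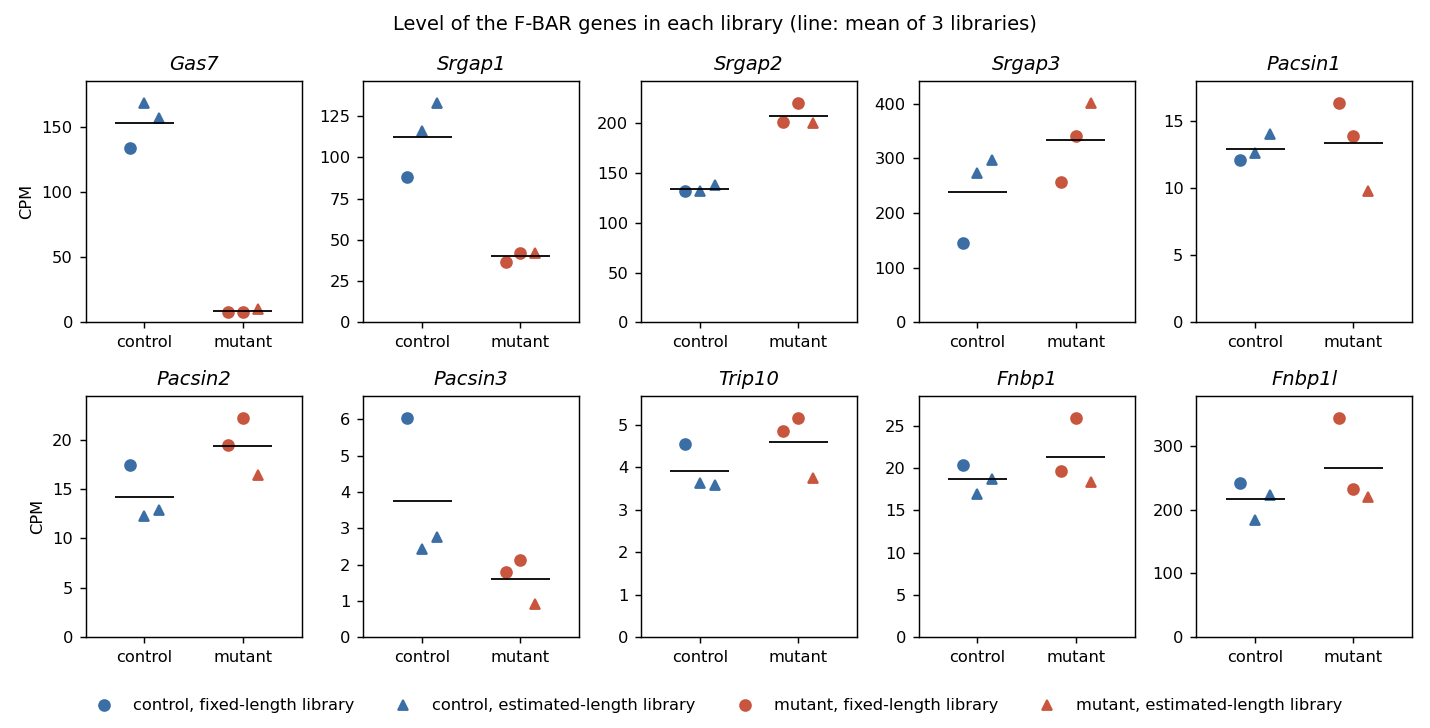
Level of each of the 10 F-BAR genes in CPM (vertical axes, from 0) in 3 control and 3 mutant libraries, with circles for fixed-length and triangles for estimated-length libraries and a line at each group mean. Gas7 and Srgap1 sit clearly lower in the mutants (means of 8.80 against 153.3 and 40.1 against 112.3 CPM), Srgap2 sits higher (207.3 against 134.0 CPM), and the groups of most other genes overlap.

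Most Gas7 counts were assigned to a single protein-coding transcript. Of 11 Gas7 transcripts in the files, Gas7-204 (ENSMUST00000108682, 7067 bases) held 97.4% of the gene's counts in control 1, 83.1% in control 2 and 80.2% in control 3. Its level was 129.8, 115.6 and 105.2 CPM in controls 1 to 3, against 8.31, 7.82 and 5.78 CPM in mutants 1 to 3. CPM of transcripts, here and below, are over library totals adjusted by TMM across transcripts. They are on another scale than CPM of genes, and the values of a transcript and its gene cannot be compared directly. It was 16.1-fold lower in the mutants of the fixed-length and 19.1-fold lower in those of the estimated-length libraries. On chromosome 11 of GRCm38, where its first coding base is 67586813 on the plus strand, its coding sequence of 1248 bases differs from that of Gas7-203 only by 12 bases at the start. Gas7-203, a shorter model chosen after its values were seen, is shown beside it because it codes from an ATG inside the same frame, at 67603117. The capitals mark the 12 bases that only Gas7-204 has, and both runs are from GENCODE vM21.
Gas7-204: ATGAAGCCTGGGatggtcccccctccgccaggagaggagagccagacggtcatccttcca
Gas7-203: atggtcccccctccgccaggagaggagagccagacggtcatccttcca
Gas7-203 was at 0.41, 3.71 and 6.10 CPM in controls 1 to 3, against 0.14, 0.038 and 0.70 CPM in mutants 1 to 3. The transcript with the 12 bases thus took more counts in every library. CPM is not per length, and Gas7-203 has 1595 bases beside 7067, so the gap per length is smaller.

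One noncoding Gas7 model showed a smaller difference than the coding one in the libraries where it could be counted. Gas7-209 (ENSMUST00000145496, 2628 bases, annotated as a processed transcript) had 284.4 and 177.3 estimated counts in controls 2 and 3 and 100.5 in mutant 3, which is 3.49, 3.49 and 1.72 CPM. That is a 2.03-fold lower level beside the 19.1-fold for Gas7-204 in the same libraries. It thereby held 19.2% of the Gas7 counts left in mutant 3 and 2.51% and 2.67% of those in controls 2 and 3. In the fixed-length libraries it had 5.02, 1.013 and 1 counts in control 1, mutant 1 and mutant 2, too few to compare. The remaining 9 transcripts summed to 20.04 and 22.4 CPM in controls 2 and 3 and 1.43 CPM in mutant 3, 14.8-fold lower. This split rests on kallisto's division of shared reads and on 1 mutant library. Gas7-209 was named only through its share in that library, a choice that favors a small fall there, and the smaller difference was not tested.

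**Figure D2:**
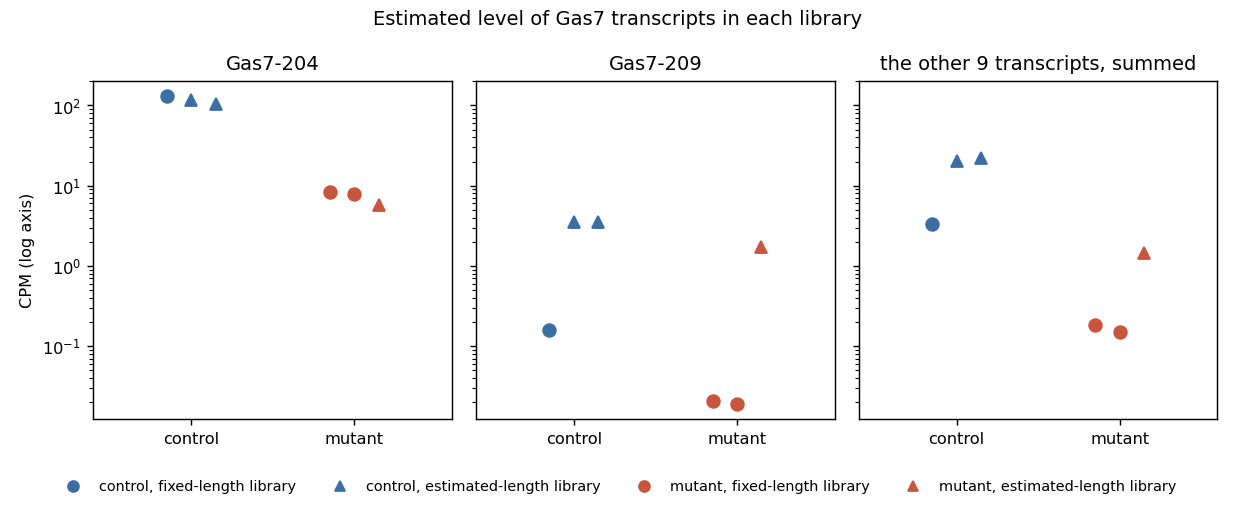
Estimated level of Gas7 transcripts in CPM (vertical log axis) in 3 control and 3 mutant libraries, with circles for fixed-length and triangles for estimated-length libraries. Gas7-204 and the other 9 transcripts together lie far lower in the mutants of each type, whereas Gas7-209 in mutant 3 (1.72 CPM) lies 2.03-fold under its controls. Gas7-209 was named only through its share in mutant 3, and its lowest points stand for about 1 count.

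The 3 srGAP genes moved apart: Srgap1 fell, while Srgap2 and Srgap3 rose. The proteins are GTPase activating proteins named for their binding to Slit receptors of the Robo family, and they form dimers with each other. Of the 9 relatives of Gas7, 2 fell (Srgap1 and Pacsin3) and 2 rose (Srgap2 and Srgap3) at an adjusted p under 0.05. Each is 22.2% of the relatives, beside 7.01% of all genes tested that fell and 7.92% that rose, 14.9% in all. Without the library type term 1 relative fell and none rose, beside 0.765% and 1.59% of all genes, 2.36% in all. With the term but without mutant 3, the counts were again 2 and 2, as they were without mutant 2. Without control 1, 0 rose and 1 fell. Without control 2, control 3 or mutant 1, 1 rose and 2 fell.

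Srgap1, whose product acts on Cdc42 downstream of Robo receptors, had 87.9, 116.0 and 132.9 CPM in controls 1 to 3, against 36.5, 42.0 and 41.8 CPM in mutants 1 to 3. Every mutant was under every control, by more than the spread within either group. The log2 fold change was -1.37 ± 0.13, a 2.58-fold fall (edgeR's quasi-likelihood test, Benjamini-Hochberg adjusted p = 0.000837). It fell in each library type, by 1.16 ± 0.14 on the log2 scale in the fixed-length (adjusted p = 0.00681) and by 1.57 ± 0.16 in the estimated-length libraries (adjusted p = 0.00349, both by edgeR). The call held in all 12 alternative settings, with adjusted p up to 0.0273. The transcript Srgap1-201, with most of the gene's counts, also fell, at 87.3, 65.6 and 78.5 CPM in controls 1 to 3, against 38.9, 42.3 and 25.1 CPM in mutants 1 to 3 (edgeR adjusted p = 0.0309 over 48353 transcripts, of which 1.4% were called, 0.91% risen and 0.49% fallen). That call was lost without the library type term (edgeR adjusted p = 0.688). Another coding model, Srgap1-202 (3414 bases in the files and 7787 in GENCODE vM21), took 23.3% to 25.1% of the gene's counts in the estimated-length libraries and under 1 CPM in the fixed-length ones. In the former it had 24.0 and 25.9 CPM in controls 2 and 3 and 8.39 CPM in mutant 3, a 2.97-fold lower level beside 2.87-fold for Srgap1-201.

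Srgap2, known for inducing filopodia and neurite branching and for slowing neuronal migration, had 131.8, 132.0 and 138.3 CPM in controls 1 to 3. Mutants 1, 2 and 3 had 201.2, 220.5 and 200.1 CPM, all above the controls and close to one another. The rise was 1.54-fold (log2 fold change 0.62 ± 0.08, edgeR adjusted p = 0.00409). Within the fixed-length libraries it was 0.68 ± 0.13 (edgeR adjusted p = 0.0321), and the value within the estimated-length libraries, 0.57 ± 0.13, missed the threshold (edgeR adjusted p = 0.0545). The call was lost without control 1 (edgeR adjusted p = 0.0542) and without the library type term (adjusted p = 0.169), with log2 fold changes of 0.59 and 0.63. Only 1 transcript, Srgap2-201, represents the gene in the files. It rose as well (edgeR adjusted p = 0.0418 over all transcripts), a call lost without the library type term (edgeR adjusted p = 0.998).

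Srgap3, which binds the WAVE complex and is also known as WRP, had 144.2, 272.2 and 297.5 CPM in controls 1 to 3, against 255.8, 340.7 and 401.1 CPM in mutants 1 to 3. The groups overlap across the library types and are apart within each. With the library type term it rose 1.71-fold (log2 fold change 0.77 ± 0.17, edgeR adjusted p = 0.0295). It rose by 1.05 ± 0.21 in the fixed-length libraries (edgeR adjusted p = 0.0322), while the value in the estimated-length libraries was 0.49 ± 0.19 (adjusted p = 0.231). The call is the weakest of the 4: it was lost without control 1, control 2, control 3 or mutant 1 (edgeR adjusted p = 0.231, 0.0915, 0.0583 and 0.0540) and without the library type term (adjusted p = 0.997). Its main coding transcripts Srgap3-202 and Srgap3-203 had similar log2 fold changes, 0.85 ± 0.14 and 0.77 ± 0.26, with edgeR adjusted p = 0.0815 and 0.364 over all transcripts. A model with a retained intron, Srgap3-201, took 11.3% to 14.2% of the counts in the estimated-length libraries and at most 2.44 counts in a fixed-length one.

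Within each library the makeup of the srGAP group can be read without any scaling between libraries. On the TPM scale, which is per length, Srgap1 made up 26.1%, 26.5% and 28.2% of the summed srGAP level in controls 1 to 3. In mutants 1 to 3 its share was 8.11%, 7.67% and 7.74%. The shares are close within a genotype, across both library types, and far apart between genotypes. All 3 srGAP genes together took 32.0%, 37.8% and 37.7% of the summed TPM of the 10 F-BAR genes in controls 1 to 3 and 40.0%, 50.6% and 49.0% in mutants 1 to 3, while Gas7 went from 17.5%, 20.3% and 18.2% to 0.85%, 0.944% and 1.5%. Gas7, whose fall chose the list, is part of the sum over the 10 genes, so its fall alone raises every other share of that sum. These are descriptions of the same 6 libraries, with no further test.

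**Figure D3:**
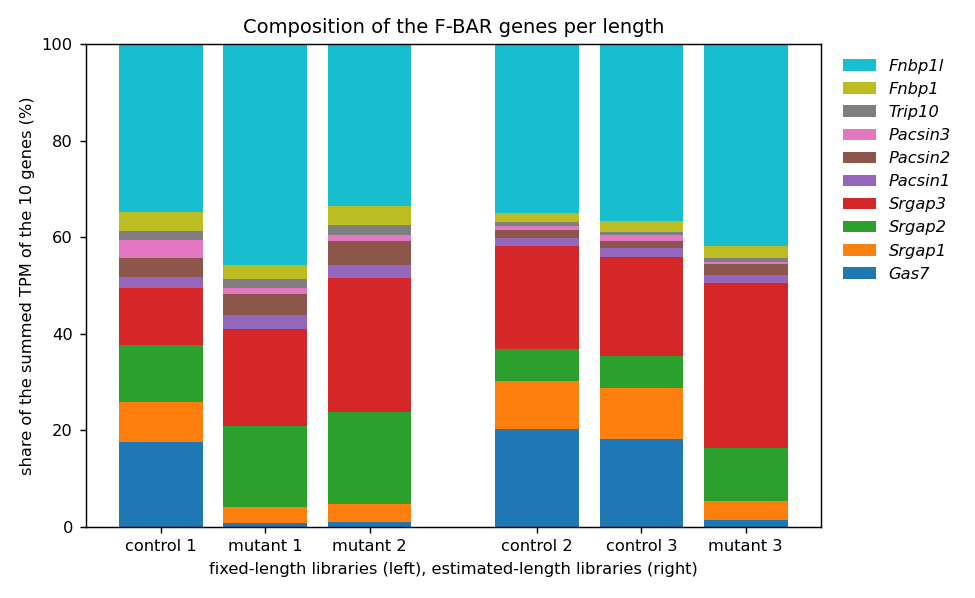
Share of each gene in the summed TPM of the 10 F-BAR genes (vertical axis, percent, each bar adds up to the whole) in the fixed-length libraries on the left and the estimated-length libraries on the right. Gas7 (bottom) shrinks from between 17.5% and 20.3% in controls to at most 1.5% in mutants, Srgap1 shrinks above it, and Srgap2 and Srgap3 widen. The fall of Gas7 alone widens every other share.

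The promoters of the srGAP genes are shown because these paralogs moved in opposite directions. They are from RefSeq (GRCm38.p6), from 250 bases before to 50 after a start site, and 9 of the 10 genes matched the table, with 13 promoters, Gas7 being the missing entry. RP58 is known to bind an E-box-like element with the core ACATCTG. That core and its inner part CATCTG were searched on both strands, so any ACATCTG match is also a CATCTG match. Neither occurs in the windows of Srgap1 (chr10:122047266-122047565, minus strand), Srgap2 (chr1:131527312-131527611, minus strand) or Srgap3 (chr6:112947217-112947516, minus strand), which are therefore all in lower case.
Srgap1: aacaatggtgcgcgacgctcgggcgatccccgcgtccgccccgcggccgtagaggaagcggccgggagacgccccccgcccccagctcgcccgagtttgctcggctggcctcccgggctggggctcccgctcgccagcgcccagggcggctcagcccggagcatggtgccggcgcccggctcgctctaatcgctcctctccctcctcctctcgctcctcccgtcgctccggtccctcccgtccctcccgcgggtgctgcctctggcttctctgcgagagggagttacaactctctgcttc
Srgap2: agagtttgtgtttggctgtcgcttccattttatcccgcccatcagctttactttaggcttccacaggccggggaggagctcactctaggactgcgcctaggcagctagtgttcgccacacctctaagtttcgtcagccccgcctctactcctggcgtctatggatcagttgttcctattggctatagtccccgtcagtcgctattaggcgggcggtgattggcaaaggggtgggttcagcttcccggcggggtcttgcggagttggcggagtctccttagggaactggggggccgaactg
Srgap3: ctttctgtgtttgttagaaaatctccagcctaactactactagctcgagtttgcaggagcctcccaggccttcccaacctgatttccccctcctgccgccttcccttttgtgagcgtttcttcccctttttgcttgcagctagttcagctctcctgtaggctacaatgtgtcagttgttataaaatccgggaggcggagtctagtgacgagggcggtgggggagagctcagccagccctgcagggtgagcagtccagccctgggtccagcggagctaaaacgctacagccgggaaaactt
The Srgap1 window holds 73% G or C, and those of Srgap2 and Srgap3 hold 58% and 55%.

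Among the 13 windows, 3 hold CATCTG or its complement and 1 holds ACATCTG or its complement. Of all 32851 promoters in the table, 17.2% and 4.43% do. The matches lie in Trip10 (chr17:57249201-57249500, plus strand) and in both Fnbp1 windows (chr2:31096451-31096750 and chr2:31141959-31142258, minus strand), genes whose levels did not pass the test. A stretch of 30 bases around each match is shown with the match in capitals, and the first Fnbp1 stretch holds the longer core, read on the other strand.
Trip10: ggggcggggcatCATCTGgactccgccctc
Fnbp1, first window: tgtggtgaccccCAGATGtaaaacgatttc
Fnbp1, second window: ggCAGATGgcgatggagggacgtgatcacc
A match is a description of these letters only, and no binding was measured.

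Of the syndapin genes, Pacsin3 fell and the values of Pacsin1 and Pacsin2 did not pass the test. Syndapins join dynamin and N-WASP to membranes, and Pacsin1 is the neuronal form. Pacsin3, best known from muscle, was scarce throughout, with 6.04, 2.43 and 2.75 CPM in controls 1 to 3, against 1.80, 2.13 and 0.911 CPM in mutants 1 to 3, from 45 to 190 counts a library. Mutants lay under controls, with mutant 2 close to control 2. The fall was 2.90-fold (log2 fold change -1.54 ± 0.20, edgeR adjusted p = 0.0035). It was -1.60 ± 0.27 in the fixed-length and -1.46 ± 0.31 in the estimated-length libraries (edgeR adjusted p = 0.0201 and 0.0447). The call was lost without control 1 (edgeR adjusted p = 0.0545) and without the library type term (edgeR adjusted p = 0.592). The transcript Pacsin3-201 did not pass on its own (log2 fold change -1.50 ± 0.46, edgeR adjusted p = 0.302 over all transcripts).

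Pacsin1 had 12.2, 12.7 and 14.0 CPM in controls 1 to 3, against 16.4, 13.9 and 9.80 CPM in mutants 1 to 3. Its log2 difference was 0.32 ± 0.19 in the fixed-length and -0.44 ± 0.19 in the estimated-length libraries, and mutant 3 alone lay under the controls. The difference between these effects was 0.76 ± 0.27, with edgeR adjusted p = 0.623 (unadjusted p = 0.0326). Pooled, the log2 fold change was -0.07 ± 0.20 (edgeR adjusted p = 0.873), and its sign turned in 4 of the 12 alternative settings. Pacsin2, the widely expressed form, had 17.4, 12.3 and 12.9 CPM in controls 1 to 3, against 19.5, 22.2 and 16.4 CPM in mutants 1 to 3. Its log2 fold change of 0.32 ± 0.11 did not pass (edgeR adjusted p = 0.101), and its groups overlap through control 1.

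Trip10, Fnbp1 and Fnbp1l, the CIP4 group that binds Cdc42 and N-WASP, showed no difference beyond the spread between libraries. Fnbp1l, which encodes TOCA1, was the most abundant F-BAR gene per length in every library. It had 241.7, 183.9 and 222.8 CPM in controls 1 to 3, against 344.0, 232.7 and 220.6 CPM in mutants 1 to 3 (log2 fold change 0.19 ± 0.17, edgeR adjusted p = 0.526). Fnbp1, which encodes FBP17, had 20.4, 17.0 and 18.7 CPM in controls 1 to 3, against 19.7, 25.9 and 18.4 CPM in mutants 1 to 3 (0.10 ± 0.13, edgeR adjusted p = 0.665). Trip10, which encodes CIP4, an inhibitor of neurite formation in cortical neurons, had 4.55, 3.63 and 3.58 CPM in controls 1 to 3, against 4.86, 5.16 and 3.75 CPM in mutants 1 to 3 (0.10 ± 0.17, edgeR adjusted p = 0.756). In all 3 genes mutants and controls overlap. Missing the threshold does not show that the levels are equal.

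**Figure D4:**
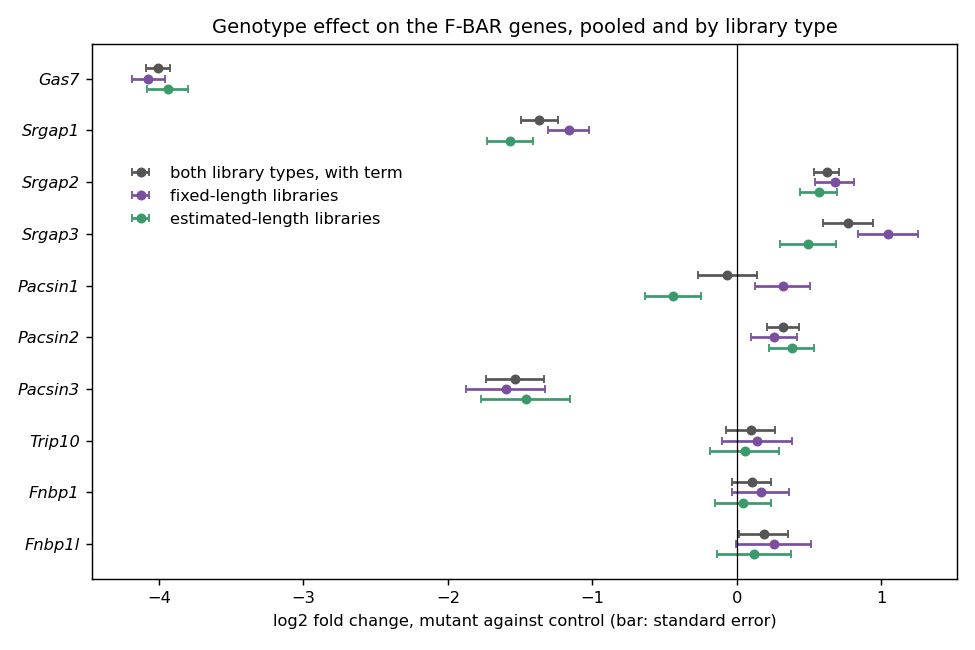
Log2 fold change of mutant against control (horizontal axis) for the 10 F-BAR genes, fitted over both library types with a term for type (grey) and within fixed-length (purple) and estimated-length libraries (green), with standard errors as bars. Gas7, Srgap1 and Pacsin3 lie left of 0 and Srgap2 and Srgap3 right of it in both types, and Pacsin1 lies on opposite sides.

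Effects had the same sign in both library types for 8 of the 9 relatives, all but Pacsin1. Within the fixed-length libraries 2 relatives rose and 2 fell, beside 6.05% and 3.41% of all genes (9.46% in all), and within the estimated-length libraries none rose and 2 fell, beside 4.6% and 3.32% (7.92% in all). Each type holds 1 genotype with a single library, so these tests pool the spread over both types. The effect differed between the types for 0 of the 9 relatives by edgeR (1 at an unadjusted p under 0.05, Pacsin1), beside 0.153% of all genes, 0.118% with the higher and 0.0353% with the lower effect in the fixed-length type. Groups did not overlap for 3 of the 9 relatives, Srgap1, Srgap2 and Pacsin3, beside 15.4% of all genes.

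Per length, the order of the 10 F-BAR genes changed most for Gas7, whose fall chose the list. Deposited TPM values were ranked within each library, and they cannot be compared between library types. With TPM rescaled to protein-coding genes, Gas7 went from 32.4 to 36.9 in control 1 and from 17.5 to 130.5 in control 2. The lower deposited values in the estimated-length libraries thus do not show lower levels there. The rescaling leaves the ranks within a library as they are. In controls 1 to 3 Fnbp1l was first, and Gas7 and Srgap3 held the next ranks, with Gas7 at 32.4, 17.5 and 14.6 TPM and Srgap3 at 22.1, 18.3 and 16.4 TPM. Srgap1 and Srgap2 followed, and Trip10 was last, at 3.29, 0.664 and 0.567 TPM. In mutants 1 to 3 the first ranks were those of Fnbp1l, Srgap3 and Srgap2, while Gas7, at 1.77, 2.18 and 1.05 TPM, was in rank 10, 10 and 8. Pacsin2, whose level did not pass the test, was in rank 7, 8 and 8 in controls 1 to 3 and 4, 4 and 6 in mutants 1 to 3. Gas7 and Srgap3 changed places between control libraries, so their order in controls is not resolved, nor is that of Pacsin1, Pacsin2 and Pacsin3.

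Over the 6 libraries, the 5 protein-coding genes whose log2 CPM followed that of Gas7 most closely, of 11147 compared, were Slc16a1, Alcam, Nr4a3, Fads3 and Odr4 (Pearson's r from 0.997 to 0.998). Slc16a1, a lactate and ketone body transporter, had 81.6, 86.9 and 92.3 CPM in controls 1 to 3, against 26.2, 28.2 and 30.9 CPM in mutants 1 to 3. Alcam, an adhesion molecule of growing axons, had 178.6, 274.7 and 309.6 CPM in controls, against 6.14, 6.75 and 8.32 CPM in mutants in the same order. The measure follows shape and not size: Odr4 had 29.2, 30.8 and 30.2 CPM in controls, against 22.5, 22.1 and 22.5 CPM in mutants. With 6 libraries that share genotype and library type, r is a description and carries no p. Among the relatives, Srgap1 had the highest value with Gas7 (0.977) and Srgap2 the lowest (-0.988). Gas7 was chosen for its genotype difference, so these values largely restate the fall of Srgap1 and the rise of Srgap2.

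The genes around the F-BAR proteins were read from 6 lists of 101 genes in all, of which 92 were tested, 6 rose and 11 fell, beside 7.92% and 7.01% of all genes. Without the library type term 0 rose and 2 fell (Arhgap29 and Baiap2), so every other call below is lost without it. Among 10 tested other F-BAR genes 1 fell and none rose, with a median log2 fold change of 0.03, beside -0.00081 over all genes tested. The one was Arhgap29, which encodes a GTPase activating protein, at 9.25, 4.94 and 8.69 CPM in controls 1 to 3, against 0.540, 1.104 and 0.284 CPM in mutants 1 to 3. Its fall was 14.3-fold (log2 fold change -3.84 ± 0.44, edgeR adjusted p = 0.0019), and no mutant reached a control.

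Of the 4 I-BAR genes tested, whose domains push membranes outward as those encoded by Srgap2 and Srgap3 do, 1 fell and none rose (median 0.23). Baiap2, which encodes IRSp53, a link from Cdc42 and Rac to WAVE in filopodia, had 74.6, 64.9 and 70.4 CPM in controls 1 to 3, against 10.1, 13.2 and 7.98 CPM in mutants 1 to 3. The groups are far apart, with a 7.31-fold fall (log2 fold change -2.87 ± 0.15, edgeR adjusted p = 9.28e-05) that was called in all 12 alternative settings. Among 22 N-BAR and other BAR genes 1 rose and 3 fell (median -0.14). The endosomal adaptor gene Appl2 rose by 1.05 ± 0.18 on the log2 scale (edgeR adjusted p = 0.00993), a value that was 0.47 with length offsets (adjusted p = 0.108), 0.52 without the library type term (adjusted p = 0.997) and 0.86 without control 1 (edgeR adjusted p = 0.0662). The falls were those of Ica1 (-0.72 ± 0.15), Sh3gl2, which encodes endophilin A1 (-0.65 ± 0.07), and Arfip2 (-0.30 ± 0.08), whose sign turned without the library type term.

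Among 6 genes of the Slit ligands and their Robo receptors, to which srGAP proteins bind, 2 fell and 2 rose (median 0.37), with 33.3% in each direction beside 7.01% and 7.92% of all genes. Robo1 fell 3.92-fold and Robo2 2.66-fold (log2 fold changes -1.97 ± 0.10 and -1.41 ± 0.13, edgeR adjusted p = 6.82e-05 and 0.000837). Robo3, the divergent receptor of commissural axons, rose from 0.0318, 0.417 and 0.379 CPM in controls 1 to 3 to 3.44, 3.46 and 11.2 CPM in mutants 1 to 3 (4.88 ± 0.32, edgeR adjusted p = 0.000197). The ligand gene Slit2 rose 2.33-fold with the library type term. It had 3.783, 10.27 and 9.95 CPM in controls 1 to 3, against 8.415, 8.399 and 24.78 CPM in mutants 1 to 3. Its groups overlap across the library types and are apart within each. Without the library type term the edgeR adjusted p was 0.0535 for Robo1, 0.0802 for Robo2, 0.125 for Robo3 and 0.997 for Slit2.

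Among 34 tested actin nucleators and regulators 2 rose and 3 fell (median -0.0034), none of them by more than 1 on the log2 scale. Wasf2, of the WAVE complex, and the formin Diaph1 rose 1.58-fold and 1.32-fold (edgeR adjusted p = 0.0111 and 0.031). The formins Diaph2 and Fmnl2 and the WAVE complex subunit Brk1 fell by 0.76, 0.36 and 0.33 on the log2 scale (edgeR adjusted p = 0.0248, 0.0322 and 0.0478), and the sign of Brk1 turned without the library type term. Of 16 genes of dynamin and clathrin endocytosis 1 rose and 1 fell (median -0.03). These were dynamin genes: Dnm2, the widely expressed one, rose 1.5-fold and Dnm3 fell 1.76-fold (edgeR adjusted p = 0.00345 and 0.0222). Arhgap29 and Baiap2 stayed called in every one of the 12 alternative settings, and 8 of the 17 genes named from these lists were called whichever single library was left out; the others lost the call without at least 1 library. With length offsets Appl2, Arfip2, Wasf2, Diaph1 and Brk1 lost it.

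**Figure D5:**
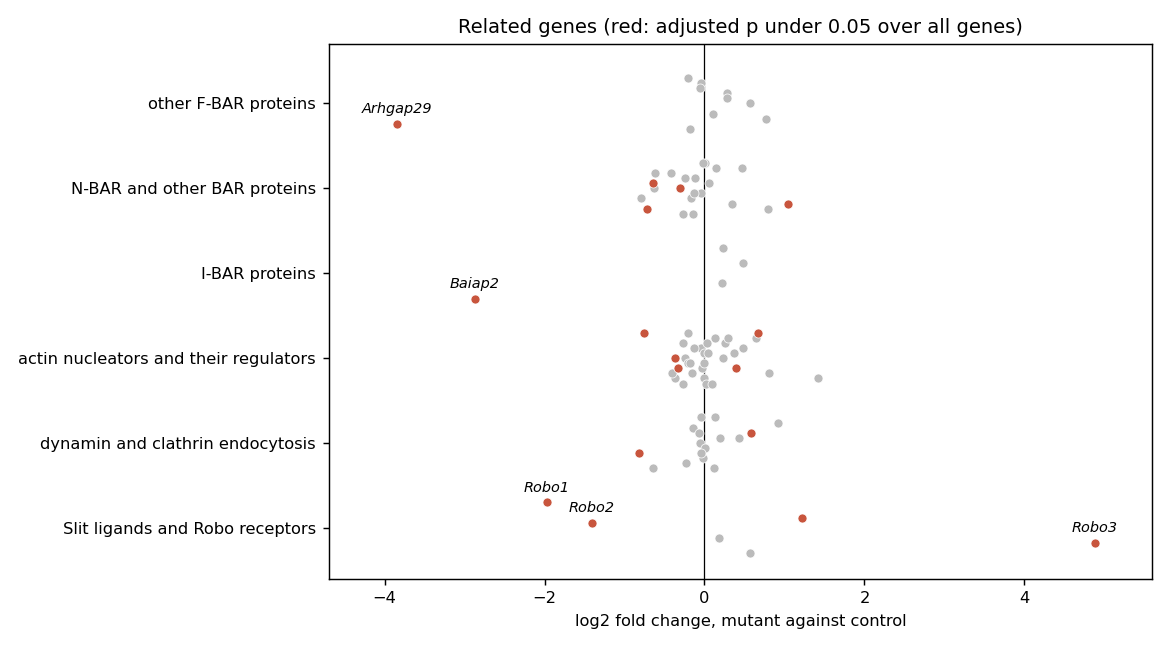
Log2 fold change of mutant against control (horizontal axis) for the 92 tested genes of the 6 related lists (rows), red where the adjusted p over all genes was under 0.05. Most actin and endocytosis genes lie near 0, and Arhgap29 (-3.84), Baiap2 (-2.87), Robo1 (-1.97) and Robo3 (4.88) lie apart.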

How the data were processed

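Libraries were made with a stranded total RNA kit, per the labels' protocols. FastQC, kallisto and mm9 appear in the submitters' processing notes, without versions, and no source used here gives the annotation. Per the file headers, each deposited table gives a length, an effective length, an estimated count and a TPM value for 97251 transcripts. The estimated counts were deposited unnormalized, and the TPM values are the authors' deposited scaling by effective length and total.

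Transcripts were joined to GENCODE vM21 (GRCm38), and 84637 (87.0%) matched. Unmatched ones held 6.85% to 8.58% of a library's counts and were left out. For 8 named transcripts the deposited length differs from that of vM21, so the model counted may differ. Estimated counts were summed to genes, rounded, and tested with edgeR 4.0.16 in R 4.3.3 (quasi-likelihood test, TMM, filterByExpr, prior count of 2, library type as a term). Adjusted p-values are Benjamini-Hochberg over 16985 genes or 48353 transcripts, and genes under 0.05 were called. Standard errors are |log2 fold change| over the root of the F statistic. The common biological coefficient of variation was 0.186 with the term and 0.701 without it. The procedure was tested on simulated data. Library types were read from the deposited lengths alone. Total estimated counts ran from 34645505 to 75892649 a library.

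The members and the lists, and the term for library type, were chosen with earlier results of these data known. Named were all members, Zbtb18, and from each related list up to 3 called genes per direction with a mean of at least 1 CPM. Named transcripts held at least 10% of a member's counts in a library. Genes most like Gas7 had a mean of at least 2 CPM and the highest Pearson correlation of log2(CPM + 0.5). Of the 101 genes of the related lists 100 were found in the files. A further related list is not reported here. Alternatives were no type term, DESeq2 size factors, no filter, length offsets, protein-coding genes only, DESeq2 1.42.0 and each library left out.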

Additional observations from a re-analysis of the deposited data

Results flagged for a closer look

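The deleted gene Zbtb18 differed in its fall between the library types. Its log2 fold change was -5.36 ± 0.13 in the fixed-length and -1.61 ± 0.13 in the estimated-length libraries, a difference of -3.75 ± 0.17 (edgeR quasi-likelihood test, adjusted p = 0.00963). The smaller fall is that of mutant 3 alone. Gas7, whose effects in the types were -4.07 ± 0.12 and -3.94 ± 0.14, showed no such gap (difference -0.13 ± 0.16).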

How the results depend on the processing

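Srgap1 was called in all 12 alternative settings, Srgap2 and Pacsin3 in 10 each and Srgap3 in 7, always in the same direction, and none of the other 5 relatives in any. Without the library type term, 0 relatives rose and 1 fell (Srgap1), where 2 and 2 did with it; over all genes 400 in place of 2537 were called, and 4029 by DESeq2. Leaving out 1 library in turn gave 0 to 2 relatives that rose and 1 to 2 that fell, with 1294 genes called without control 1, 1410 without control 2, 1429 without control 3, 1557 without mutant 3, 2106 without mutant 1 and 3034 without mutant 2. Of 20 named transcripts of the relatives tested, Srgap2-201 rose and Srgap1-201 fell, beside 0.91% and 0.49% of all transcripts. Without the term 0 rose and 0 fell. Of 92 related genes tested 6 rose and 11 fell, beside 7.92% and 7.01% of all genes. Without the term 0 and 2 did, beside 1.59% and 0.765%. Gas7 ranked 2 by mean control TPM and 3 with TPM rescaled to protein-coding genes. The log2 fold change of Pacsin1 turned from -0.07 to 0.045 without the term, 0.062 with length offsets, 0.015 without control 3 and 0.32 without mutant 3, in a range of -0.42 to 0.32 with 1 library left out. Without the term it also turned for Arfip2 (0.072), Brk1 (0.0205) and transcript Srgap3-201 (-0.37). With 1 library left out, Fnbp1 ranged from -0.067 (without mutant 2) to 0.35 within the fixed-length and from -0.026 (without control 2) to 0.11 within the estimated-length libraries, and Fnbp1l from -0.055 (without mutant 1) to 0.49 and from -0.012 (without control 2) to 0.26. The causes were not tested. No paired analysis was possible because the labels give no replicate numbers that the genotypes share. Depth limits Pacsin3, with 45 counts in mutant 3, and Gas7-209 in the fixed-length libraries.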
